A study of Drosophila melanogaster with 12 samples.

Results

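The list of chromatin states over which the study counted its reads holds 42126 regions, and in 476 of them (1.13%) the chromosome name ends in Het. These 476 regions, hereafter Het regions, were taken by that ending alone, whatever their state, and they are set against the 41650 regions on the other 6 names, the arms 2L, 2R, 3L, 3R and X and chromosome 4. The study used chromatin immunocleavage (ChIC), in which an antibody against GFP brings micrococcal nuclease to GFP-tagged histones so that the DNA around them is released and sequenced. The groups were H3A31S-GFP, in which alanine 31 of the canonical histone H3 is replaced by serine, its counterpart H3-GFP, H3.3S31A-GFP, in which serine 31 of the variant H3.3 is replaced by alanine, and its counterpart H3.3-GFP. Each group had 3 replicates, 12 libraries in all. In every group (nanos > Unpaired with the tagged histone) the nanos driver expressed the tagged histone together with Unpaired, a ligand of the JAK-STAT pathway, in the germline of male flies kept at 25 °C and aged for about 2 days, and each replicate pooled 18 to 20 pairs of testes. The libraries therefore came from tumorous testes with stem cells of both the germline and the soma, and the tagged histone came from a transgene beside the fly's own histone genes. Per the study's methods, the H3A31S transgene lay on another chromosome than the Unpaired transgene, while in the other lines both lay on the same chromosome. The H3A31S line was also crossed to a separately named nanos driver line. No comparison between these groups could be made over the Het regions, since no sample is named for any of the 12 columns of reads, and only their sum was used.

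Heterochromatin is the part of the genome that stays compact through the cell cycle. In flies it surrounds the centromeres, fills most of the Y chromosome and much of chromosome 4, is rich in transposons and satellite repeats, holds few genes and carries nucleosomes methylated on lysine 9 of H3, which are bound by HP1. Some genes lie within it and depend on it for their normal expression. Names that end in Het were used in an earlier release of the fly genome, where sequence assigned to the heterochromatin of a chromosome was kept apart from the arm. The list gives every region 1 of 9 states, which a hidden Markov model had drawn from maps of histone marks and chromosomal proteins in the modENCODE project. The states were defined before this study and not from its libraries, so they are not a measure of chromatin in these testes. State 1 stands for promoters and transcription start sites, State 2 for transcription elongation, State 3 for regulatory regions such as enhancers, State 4 for active introns, State 5 for active genes on the male X, State 6 for Polycomb-bound chromatin, State 7 for pericentromeric heterochromatin, State 8 for heterochromatin-like stretches within euchromatin and State 9 for transcriptionally silent intergenic chromatin.

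The list is a single table that belongs to no sample, and it has no replicates. Het regions overlap and abut each other, so they are not independent, and no test was possible. The differences given between Het names and other names are descriptions of this list, and none is shown to be particular to the Het names. The genome build of the coordinates is not given in the sources used here. Of the 6 Het names, 0 are in the annotation of the dm6 assembly, while 6 of the 6 other names are, so neither genes nor sequences are given for the Het regions. Starts are counted from 1.

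Pericentromeric heterochromatin, State 7, was the most frequent state of the Het regions and took nearly all of their length. There were 124 regions on 2RHet, 116 on 3LHet, 84 on 3RHet, 72 on YHet, 61 on XHet and 19 on 2LHet. State 7 made up 207 of the 476 Het regions (43.5%) and 1791 of the 41650 others (4.30%). By summed length the State 7 regions took 96.5% on Het names and 5.39% on other names. The Het regions were thus 10.4% of all State 7 regions of the list and 57.4% of all State 7 length. The label of the Het names was checked against this state. At least 1 State 7 region lay over 98.7% of the covered Het bases, against 6.72% of those on other names. That share was between 98.6% and 99.4% on 2LHet, 2RHet, 3LHet and 3RHet, was 94.8% on YHet, and was lowest on XHet, at 75.8%. On chromosome 4, whose 443 regions bear no Het name, State 7 lay over 85.8% of the covered bases, which is above the share on XHet and below those on the other Het names. State 7 made up 41.3% of the regions of chromosome 4 and 72.2% of their summed length. The coordinates listed for chromosome 4 spanned 17446.4 kb, of which 1350.6 kb were covered and 16092800 bp were a single gap. What this gap stands for was not established here.

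The next most frequent Het state was State 8, the heterochromatin-like state, with 107 regions (22.5%, against 5.73% of the other regions). State 8 took 1.16% of the summed Het length and 9.28% of the summed length elsewhere, so its Het regions were many and short. State 1, the promoter state, followed with 71 regions (14.9%, against 17.2%). State 2 and State 9 had 25 Het regions each (5.25%). State 9, the silent intergenic state, took 0.919% of the summed Het length, against 33.3% on other names, where 19.0% of the regions had it. Chromosome 4 was near the Het names in this, with State 9 over 0.980% of its summed length. State 8 made up 12.4% of the regions of chromosome 4 and 6.35% of their summed length. State 5 had 21 Het regions, State 3 had 15 and the Polycomb state, State 6, had 5. State 4, the state of active introns, had 0 Het regions of its 6363.

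**Figure D1:**
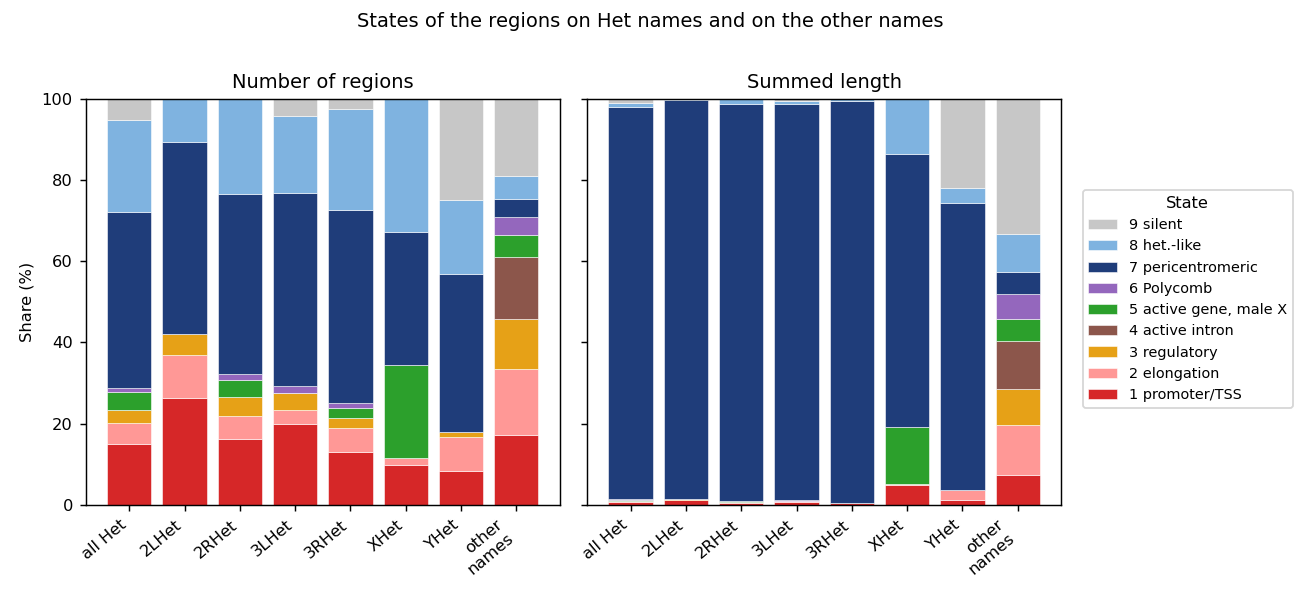
Share of regions (left) and of summed region length (right) in each state, in percent, for the Het names together, each Het name and all other names. State 7 fills 96.5% of the summed Het length, with XHet and YHet below the other Het names.

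State 7 also had the longest Het regions. All lengths were multiples of 200 bp, and within each Het name all starts fell on 1 grid of 200 bp. The median length was 2400 bp both for the Het regions and for the others, but the upper quartile was 22300 bp on Het names and 5200 bp on other names. Regions of at least 10 kb were 155 of the 476 Het regions (32.6%), against 12.6% of the others and 18.7% of those of chromosome 4. Of these 155 Het regions, 142 were State 7. The median State 7 region was 35400 bp long on Het names, 1200 bp on all other names and 5400 bp on chromosome 4. In each of the other 7 states found on Het names the Het median was the shorter. The median of State 1 was 1600 bp on Het names and 1800 bp on other names, and that of State 9 was 2800 bp on Het names and 3200 bp on other names. The median of State 8 was 1000 bp on Het names against 2600 bp on other names, and that of State 5 was 1600 bp against 3200 bp. The median of State 2 was 600 bp on Het names against 3000 bp on other names, that of State 3 was 400 bp against 2200 bp, and that of State 6 was 200 bp against 1800 bp.

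**Figure D2:**
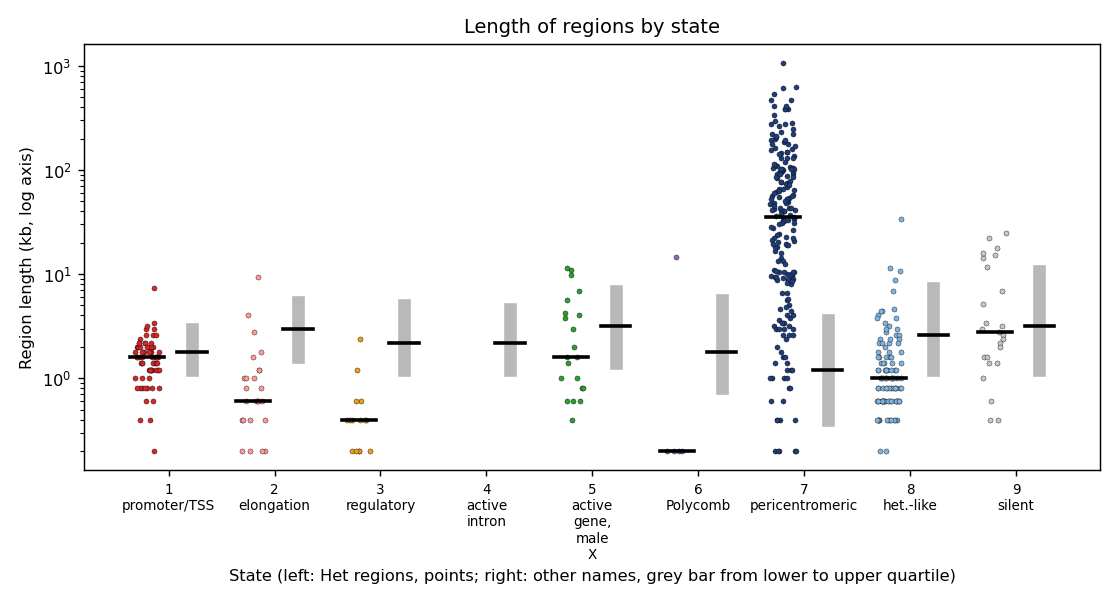
Length of each Het region (points, kb, log axis) by state, with the median as a black line, beside the median and the lower to upper quartile (grey bar) of the regions on other names. State 7 is the only state whose Het median, 35400 bp, lies above that of the other names, 1200 bp.

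The longest Het region was a State 7 region on 3RHet of 1054.6 kb (620601 to 1675200). The longest regions of the other names were State 7 as well. They were 619 kb on 2RHet (472401 to 1091400), 533.6 kb on 3LHet (1570727 to 2104326), 198.8 kb on 2LHet (169362 to 368161), 114.6 kb on YHet (66001 to 180600) and 102.4 kb on XHet (90868 to 193267). The longest region off the Het names had 501000 bp. The largest members of the other states were far smaller. The longest State 8 region, on 2RHet, had 33.8 kb, the longest State 9 region, on YHet, had 24.6 kb (267801 to 292400), and the longest State 6 region, on 3LHet, had 14.6 kb (203527 to 218126), where the other 4 State 6 regions had 200 bp each. The longest State 5 region, on XHet, had 11.4 kb (62668 to 74067), and the longest State 1 region, also on XHet, had 7.4 kb (73868 to 81267). The longest State 2 region, on YHet, had 9.4 kb (112601 to 122000), and the longest State 3 region, on 2RHet, had 2.4 kb (2265801 to 2268200).

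State 7 reached an end of the listed coordinates on each of the 6 Het names. At the start, State 7 opened 2LHet, 3LHet and 3RHet, in 1 region of 27.6 kb on 2LHet, in 193.8 and 33.2 kb on 3LHet and in 415 and 294.8 kb on 3RHet. A State 8 region of 1.4 kb opened 2RHet, a State 9 region of 3.2 kb opened YHet, and regions of State 7 and State 8 opened XHet together. At the other end a State 7 region closed each name, and on 3RHet a State 1 region of 1.8 kb ended at the same base as a State 7 region of 2.6 kb.

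Most Het bases lay under a pair of regions. The summed length was 17736.4 kb, over 9172 kb of covered bases. Of these, 8564.4 kb (93.4%) were in 2 regions, 607.6 kb were in 1, and none were in more. On other names 97.3% of the covered bases were in 2. The share was highest on 3RHet, at 98.7%, and lowest on YHet, at 83.1%. There were 22 gaps between covered stretches of the Het names. They summed to 41 kb, and the longest, of 7000 bp, was on YHet. Because the list covers most bases in 2 layers, each region count above takes most of the Het sequence more than once. What the 2 layers stand for was not established here. Joined where they overlapped or abutted, the 207 State 7 regions made 60 blocks with a median of 41.5 kb, against 1328 blocks with a median of 1 kb on other names. Among the other names, chromosome 4 had 71 blocks with a median of 13 kb. The longest Het blocks were 1153.6 kb on 2RHet (1621801 to 2775400), 1091.2 kb on 3RHet (613801 to 1705000) and 791.8 kb on 3LHet (1397127 to 2188926). On XHet the 10 blocks had a median of 1.2 kb, and 1 block of 102.4 kb took most of their 143.8 kb.

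**Figure D3:**
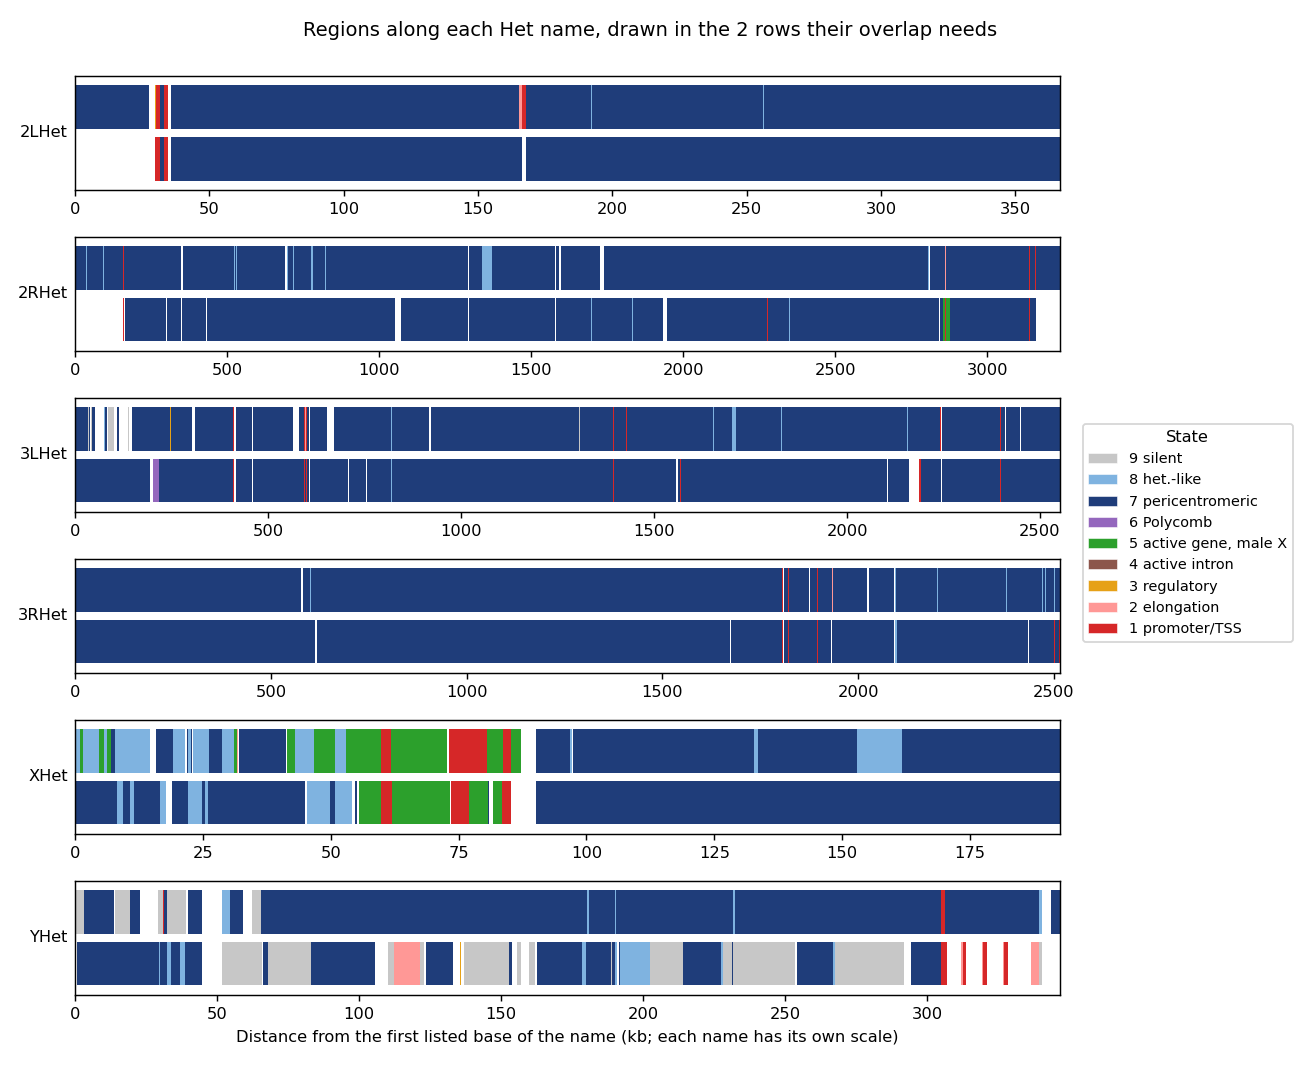
Regions along each Het name, coloured by state, by distance from the first listed base in kb, with a scale of its own for each name. The rows within a name only keep overlapping regions apart, and the shortest regions are too thin to be seen. State 7 runs through most of 2LHet, 2RHet, 3LHet and 3RHet, while States 1, 5 and 8 gather in the first part of XHet and State 9 recurs along YHet.

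Where a pair of regions lay over a base, the pair mostly had the same state on Het names. The states were the same over 95.2% of the Het bases in 2 regions, against 62.0% on other names. By name the share was 99.2% on 2LHet, 98.8% on 3RHet, 96.6% on 2RHet, 96.4% on 3LHet, 76.4% on XHet and 43.8% on YHet. In most of these Het bases State 7 lay over State 7. Bases with State 7 in neither region had the same state over 75.4% of 102.4 kb on Het names and over 61.9% on other names. The states differed over 414.6 kb, and State 7 was one of the pair over 389.4 kb of these (93.9%), against 6.11% on other names. YHet alone held 157 kb of the differing bases.

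The states that lay over State 7 differed in how they did so. State 7 lay over 98.7% of the covered Het bases and 6.72% of those on other names. The part of this cover in the partner shares was not tested. A State 7 region was the partner over 84.6% of the State 8 bases in 2 regions on Het names and over 4.83% on other names. For State 9 as the partner of State 8 the shares were 4.53% on Het names and 73.7% on other names. The Het share was 0.123% without YHet and 7.12% without 2RHet. For State 9 itself the partner was State 7 over 92.4% on Het names and 0.706% on other names. State 9 lay over State 9 in 2.19% on Het names, or 0% without YHet, against 47.6% elsewhere. The promoter state paired mostly with itself. State 1 lay over State 1 in 56.0% of such bases on Het names and in 71.1% on other names, and over State 7 in 28.5% on Het names and 1.42% on other names. State 5 lay over State 5 in 32.9% on Het names and 53.8% on other names. The Het names differed in this. On XHet, which held 31.4 of the 51 kb of such State 5 bases, State 5 was the partner over 53.5% and State 7 over 19.7%, while on 2RHet State 7 was the partner over 98.9%. Without 2RHet, State 5 was the partner over 51.5% and State 7 over 20.2%, and without XHet State 5 was the partner over 0% and State 7 over 94.9%. State 7 was the partner over 71.9% of the State 2 bases, 85.4% of the State 3 bases and 100% of the State 6 bases on Het names. For State 2 the share was 45.3% without YHet, where a single region of 9.4 kb lay over State 7, and for State 6 a single region of 14.6 kb made up most of the 15.4 kb. State 7 lay over State 7 in 95.4% of such bases on Het names and 63.4% on other names.

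**Figure D4:**
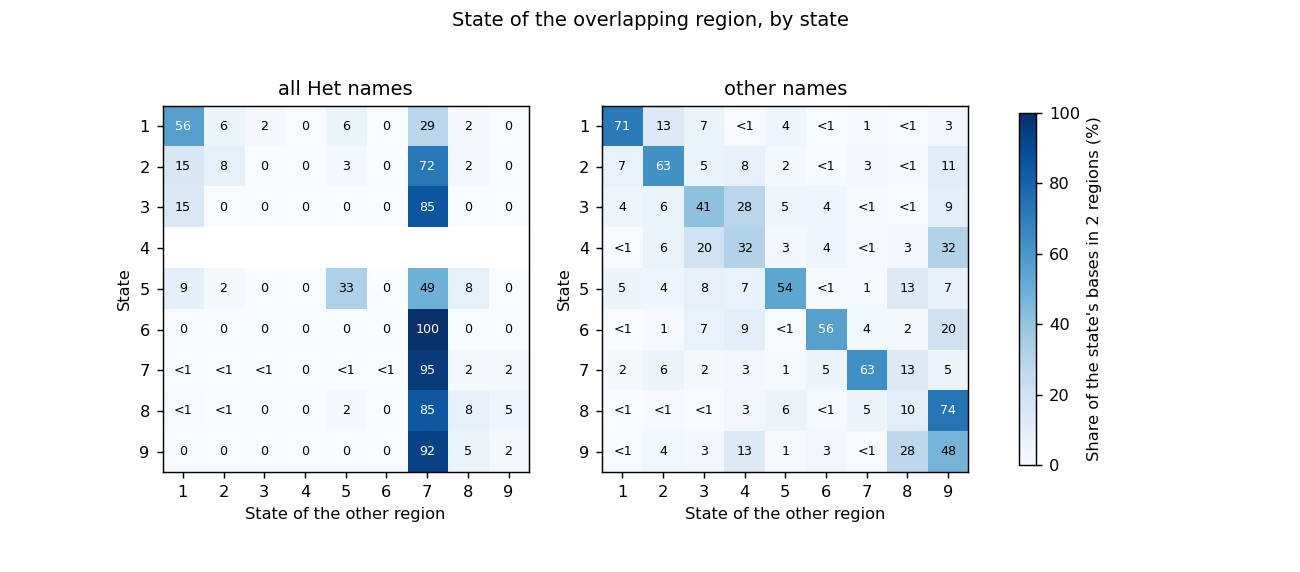
Partner states of bases covered by a pair of regions, as percent of the bases of the state on each row, for Het names (left) and other names (right). State 7 is the partner over 84.6% of State 8 and 92.4% of State 9 on Het names, against 4.83% and 0.706% on other names. State 7 lay over 98.7% of all covered Het bases and 6.72% of those on other names.

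The largest overlaps of different states all held State 7. They were 33.8 kb with State 8 on 2RHet, 24.6 kb with State 9 on YHet (267801 to 292400), 17.6 kb with State 9 on 3LHet (84927 to 102526) and 8.8 kb with State 8 on XHet (153668 to 162467). On 3RHet 2 overlaps with State 8 had 2.4 kb each, and on 2LHet the largest, with State 2, had 0.8 kb. The State 8 region on 2RHet and the State 9 region on YHet were the longest Het regions of their states, and each lay wholly inside a single State 7 region.

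Such nesting was frequent. Of the 269 Het regions of states other than 7, 141 (52.4%) lay wholly inside a State 7 region, against 402 of 39859 (1.01%) on other names. State 7 lay over 98.7% of the covered Het bases and 6.72% of those on other names. The part of this cover in the share, and in the shares of regions that abut State 7 below, was not tested. By state the share ran from the Polycomb state, with 5 of 5, through State 3 with 11 of 15, State 8 with 74 of 107, State 9 with 17 of 25, State 2 with 13 of 25 and State 5 with 10 of 21, to the promoter state, with 11 of 71 (15.5%). State 1 regions instead abutted State 7. A State 7 region began or ended at the edge of 50 of the 71 State 1 regions (70.4%), against 6.60% of those on other names. For State 8 the numbers were 93 of 107 (86.9%, against 46.7%), and 47 of the 107 had State 7 on both sides.

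There were 341 pairs of abutting Het regions, in which a region starts where another ends. State 7 was on a side of 276 of them (80.9%), against 7.46% of the 45626 pairs on other names. These shares stand beside a State 7 cover of 98.7% of the Het bases and 6.72% of those on other names. The most frequent Het pair was State 7 with State 8, with 148 pairs (43.4%), followed by State 7 with State 1, with 74 (21.7%), State 1 with State 2, with 21, State 7 with State 9, with 18, and State 1 with State 5, with 16. Only 1 of the 341 pairs had the same state on both sides (0.293%), a pair of State 2 regions on 2RHet, against 175 of 45626 (0.384%). A list that joins touching stretches of 1 state into 1 region leaves few such pairs on any name, and this was not tested. When regions within 200 bp of each other counted as neighbours, the Het share was 1.26%, and this was not computed for the other names.

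The states of active chromatin formed small islands in the Het names. Joined where they overlapped or abutted, the 132 Het regions of States 1, 2, 3 and 5 made 65 islands. They took 160.8 kb, or 1.75% of the covered Het bases, and had a median of 1.6 kb. In 25 of the 65, bases of an active state lay in both regions of a pair. 2RHet had 19 islands, with 8 before and 11 after the midpoint of its coordinates. 3LHet had 17, with 8 before and 9 after. 3RHet had 10, and the 9 after its midpoint began at 1704601, at the end of the 1091.2 kb State 7 block. 2LHet had 3, all before its midpoint. The longest islands of the autosomal names were 17.2 kb of States 1, 2 and 5 on 2RHet and 9 kb of States 1 and 2 on 3LHet (592727 to 601726). For each Mb of covered sequence there were 3.98 islands on 3RHet, 26.8 on YHet and 36.9 on XHet. YHet and XHet are short, with 336.4 kb and 189.6 kb covered.

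XHet stood apart from the other Het names in the list. Its 7 islands took 22.7% of its covered bases and all lay before the midpoint of its coordinates. The largest had 34.2 kb (53668 to 87867) and was the longest on any Het name. It joined 14 regions, all of State 1 or State 5, and a state of active chromatin lay in both regions of the pair over 81.9% of it. It held the longest State 1 and State 5 regions of the Het names. XHet had 14 of the 21 Het regions of State 5, the state of active genes on the male X, which is the chromosome that the dosage compensation complex binds in males. The other 7 State 5 regions were not on the X, with 5 on 2RHet and 2 on 3RHet. Beyond the large island, State 7 ran from 90868 to the end at 193267, and State 8 regions lay over part of it. XHet also had the largest share of State 8, with 20 of its 61 regions and 13.5% of its summed length.

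YHet differed in another way. Of the 25 Het regions of State 9, 18 were on YHet. They were 25% of its regions and 21.9% of its summed length. Over 90.9% of the YHet State 9 bases in 2 regions, the partner was State 7, and these 116.2 kb made most of the 157 kb over which the YHet pairs differed. The 24.6 kb State 9 region, for example, lay inside a State 7 region of 72400 bp (232801 to 305200). Active islands took 6.12% of YHet. Of its 9 islands, only 1, a 2.2 kb island of State 1 (305201 to 307400), had bases of an active state in both regions of a pair. The 9.4 kb State 2 region was the longest stretch of the elongation state on any Het name, and it lay inside the 114.6 kb State 7 region.

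The table of reads per region has no region names, and its rows were taken to follow the list. Over the other names, length and summed reads had a Spearman's rho of 0.89 across 41650 regions, which share bases and are not independent, and rho was 0.06 over the whole list when the sums were moved by 1 row. In 2724 of 2724 pairs of regions with the same start, the shorter had no more reads than the longer. A read in a base under 2 regions may be counted in both.

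No read was counted in any Het region. The sum over all 12 columns was 0 in 476 of 476 Het regions, over 17736.4 kb of summed length. On other names it was 0 in 824 of 41650 regions (1.98%). The counts of these regions, in which a read may appear more than once, summed to 115822034, or 490.3 reads per kb. The zeros held for each Het name, each state and each length, as they must where the total is 0. Of the 155 Het regions of at least 10 kb, 155 were at 0, against 11 of 5264 (0.209%) on other names. The 52 Het regions of at least 100 kb had 0 reads, while the 116 such regions on other names had between 13601 and 188673, with a median of 65692.5. Whether the list and the aligned reads share a build on the other names was not tested. If they do not, the counts there need not belong to the states listed beside them. On other names the State 7 regions were mostly above 0. They had 382.75 reads per kb, with 90 of 1791 (5.03%) at 0, and those of at least 10 kb had 3 of 242 at 0. Chromosome 4, which State 7 mostly covers, had 641.8 reads per kb, the highest of the 6 other names, and X had 290.3, the lowest. All 71 State 1 Het regions were at 0, against 161 of 7179 (2.24%) elsewhere.

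A count of 0 over all Het regions allows up to 3 reads at this depth, for counting error only. That is 2.59e-06% of the counts summed over all regions and 0.000169 reads per kb. Where a name is missing from the assembly aligned to, such a bound measures nothing. The count of 0 gives no level of any histone in heterochromatin. Reads were above 0 on each of the 6 names that are in dm6, the assembly to which the authors aligned, and 0 on each of the 6 that are not. The part of the missing names in the zeros was not tested. No comparison of H3A31S with H3 or of H3.3S31A with H3.3 can be read from the zeros.

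**Figure D5:**
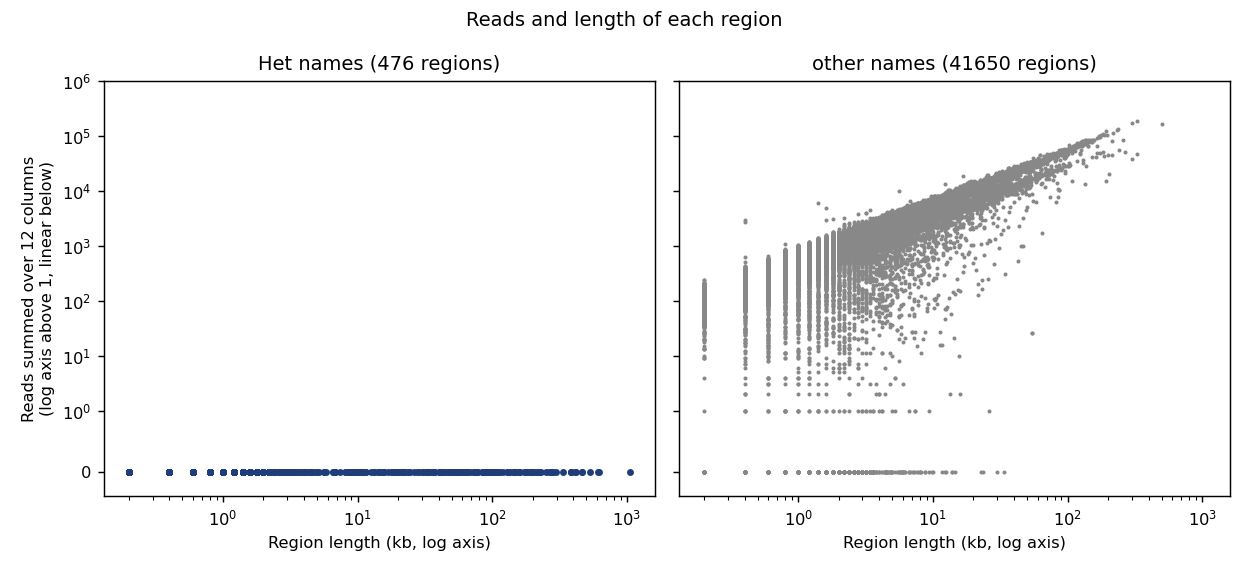
Reads summed over the 12 columns (log axis above 1, linear below) against region length (kb, log axis), each point a region, for Het names (left) and other names (right). All 476 Het regions lie at 0 at every length, and 824 of the 41650 others do.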

How the data were processed

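The authors aligned the ChIC reads to dm6 with Bowtie2 (version not given in the sources used here), discarded duplicate and poorly mapped reads, and counted the rest over the 9-state list of regions, which they had taken from modENCODE. The deposited table gives read counts per region, not normalized, in 12 columns. None of these 12 columns matches a sample, and they were used only as their sum. The deposited list gives name, start, end and state number (other values, with no unit but bp). Ends often equal the starts of other regions, so the list was taken to count starts from 0, and starts are printed from 1.

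The members and lists were chosen with earlier results of these data known. Regions named were the longest, first and last on each Het name, the longest of each state, the largest overlap of different states on each name, and those with most reads, which named none as all were at 0. Islands joined overlapping or abutting regions of States 1 to 5. The island and State 7 block coordinates and the XHet and YHet details were chosen after their values were seen. Cover, overlap and neighbour counts were tested on simulated data. Alternatives were leaving out each Het name, regions of at least 1000 bp, identical regions counted once, merging regions of 1 state, each base counted once for each state, neighbours within 200 bp, and the median of the regions' own reads per kb. Partner shares without each Het name were added after seeing the data. Python 3.11.15, numpy 2.4.6, pandas 2.3.3 and matplotlib 3.10.9 were used. Differences between histones, which the study tested on normalized reads over the whole list and reported, were not computed here. The coverage tracks were not used here.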

Additional observations from a re-analysis of the deposited data

How the results depend on the processing

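Of 139 values of 16 results under the alternatives, 123 stayed within their yardstick and 16 did not. Some of the 123 could not move, so this tally does not measure how stable the results are. Counting identical regions once changed nothing, since no Het regions shared coordinates and state. The state of active introns had 0 Het regions, so its count was 0 under every alternative. Reads per kb were also bound to stay at 0. The yardstick was 1.5 times for a count and the 95% Wilson interval with n = 476 for a share, although regions are not independent and abutting pairs are fewer. At exactly 1.5 times were the median length of 1600 bp after merging and the 10 State 3 regions without 3LHet. Merging regions of 1 state left 43 blocks of State 1 and 60 of State 7. Among regions of at least 1000 bp there were 10 of State 2, 2 of State 3, 1 of State 6 and 59 of State 8, the median length was 5400 bp and 0% of abutting pairs had the same state. Without 2RHet there were 9 regions of State 3, 3 of State 6 and 0% of same-state pairs. Without 3LHet there were 3 of State 6, without XHet 7 of State 5, and without YHet 7 of State 9. With each base counted once for each state, State 7 took 94.4% of the length, and without YHet 96.9% of the bases in 2 regions had the same state. Leaving out each Het name in turn from the partner shares was chosen after seeing the data. All Het regions stayed at 0 reads under every alternative run for the reads, as they must where the total is 0. No paired analysis was possible because none of the 12 columns of reads has a replicate number. The list is 1 table with no replicates, its build is not stated, and XHet, YHet and 2LHet are short, so a few regions set their shares.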

Other observations

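Near the end of YHet, a State 2 region of 600 bp was followed by a State 1 region of 1200 bp 3 times, with State 2 starts at 312401, 319601 and 327001, that is 7200 and 7400 bp apart. All of these regions lay inside a State 7 region of 33000 bp (306801 to 339800). Of the pairs in which State 1 starts where State 2 ends, 3 of 10 on Het names had these lengths, against 6 of 4370 on other names. The pattern was chosen after it was seen, and whether the stretches share sequence was not tested.

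The Het regions were 476 of the 1300 regions with a sum of 0 in the whole list (36.6%). In State 7 they changed the share at 0 most, with 297 of 1998 regions (14.9%) in the whole list, against 90 of 1791 (5.03%) without the Het names. In State 8 the share was 7.74% in the whole list and 3.60% without them. A region with 0 reads in all 12 columns has no difference between histones to give, so a count by state over the whole list includes 207 State 7 regions, 107 State 8 regions and 162 regions of other states that could not differ.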
